A study of Rattus norvegicus with 3 samples.

Results

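Cardiomyocyte nuclei of the BMD and DMD rat hearts were compared with each other directly, without going through the WT library. A nucleus entered when 10 cardiomyocyte genes, among them the troponin gene Tnnt2, the Z-disc gene Actn2 and the splicing regulator Rbm20, made up at least 1% of its unique molecular identifiers (UMIs) and when the fibroblast genes Dcn and Pdgfra and the endothelial genes Flt1 and Ptprb had at most 2 UMIs together. The rule kept 2874 nuclei, 1633 of the 6810 called nuclei of BMD and 1241 of the 7890 of DMD, out of 24664 called nuclei in the 3 libraries of the series. The BMD rats (R-BMDdel45-47) carried an in-frame deletion of exons 45 to 47 of Dmd, and the DMD rats (R-DMDdel52) a deletion of exon 52. The BMD line was made with Cas9 in Sprague Dawley oocytes. The rats of both genotypes were 12 months old, and WT rats of that age were the controls. Nuclei came from the apex of the heart, which holds part of the septum and of both ventricles, and had been sorted on the DNA dye DAPI. Each genotype was 1 library, the number of animals behind it was not given in the sources used here, and no p-value was computed. All intervals below are at 95% and cover counting error only, since nuclei of 1 library are not replicates of a genotype.

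Dystrophin, the product of Dmd, ties the actin of the muscle cell to a protein complex in its membrane, and so to the matrix outside. Out-of-frame deletions abolish it and give Duchenne muscular dystrophy, while in-frame deletions leave a shortened protein and give Becker muscular dystrophy. In both diseases the ventricle can dilate and lose force, and its cardiomyocytes switch on natriuretic peptides and other genes of the stressed or fetal heart.

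The kept nuclei were 24.0% of the BMD nuclei (exact Clopper-Pearson interval 23.0 to 25.01) and 15.7% of the DMD nuclei (14.9 to 16.6), a difference of -8.25 percentage points (-9.55 to -6.96). They summed to 7043565 UMIs in BMD and 4263711 in DMD, with medians of 3731 and 3080 UMIs per nucleus. At the marker threshold, 7 BMD and 14 DMD nuclei lay just inside, between 1% and 1.1%, and 7 and 18 just outside, between 0.9% and 1%. At the other threshold, 33 BMD and 110 DMD nuclei had exactly 2 UMIs of the fibroblast and endothelial genes and were kept, and 20 and 58 had 3 and were not. The kept nuclei of both libraries shared 1 barcode. Levels are given as CPM, the UMIs of a gene per 1e+06 UMIs of the kept nuclei. The 10 cardiomyocyte markers used by the rule summed to 25986 CPM in BMD and 25078 in DMD, against 2419 and 2290 in the nuclei that were not kept. Atrial, skeletal muscle, adipocyte and mesothelial markers stood at 26.7 CPM or less per list in both libraries.

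Markers of other cell types were higher in the DMD nuclei. The summed level of the fibroblast list was 159 CPM in BMD and 498 in DMD, that of the endothelial list 175 and 247, that of the macrophage list 121 and 175, and that of the endocardial list 201 and 348. The neutrophil and monocyte list, S100a8, S100a9 and Csf3r, stood at 14.6 CPM in BMD and 125 in DMD. In the barcodes with at most 50 UMIs, taken as free RNA, that list stood at 702 CPM in BMD and 4398 in DMD. The pericyte and smooth muscle list was at 105 and 109 CPM. Dcn, Pdgfra, Flt1 and Ptprb are on these lists and were used by the rule. Scrublet, which scores nuclei against simulated pairs, called 4.59% of the kept BMD nuclei and 11.1% of the kept DMD nuclei doublets. UMIs of the mitochondrial genome made up 0.646% of the kept BMD and 0.933% of the kept DMD UMIs. The part of these differences in each result was not tested. Levels in fibroblast-marked or endothelial-marked nuclei stand beside some of the genes. A gene without them is not thereby shown to be free of RNA from other cells. A nucleus counted as marked with at least 3 UMIs of the genes of one type, at most 2 of the other and cardiomyocyte markers under 1%. There were 1159 fibroblast-marked nuclei in BMD and 1941 in DMD, and 1248 and 1539 endothelial-marked nuclei.

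**Figure D1:**
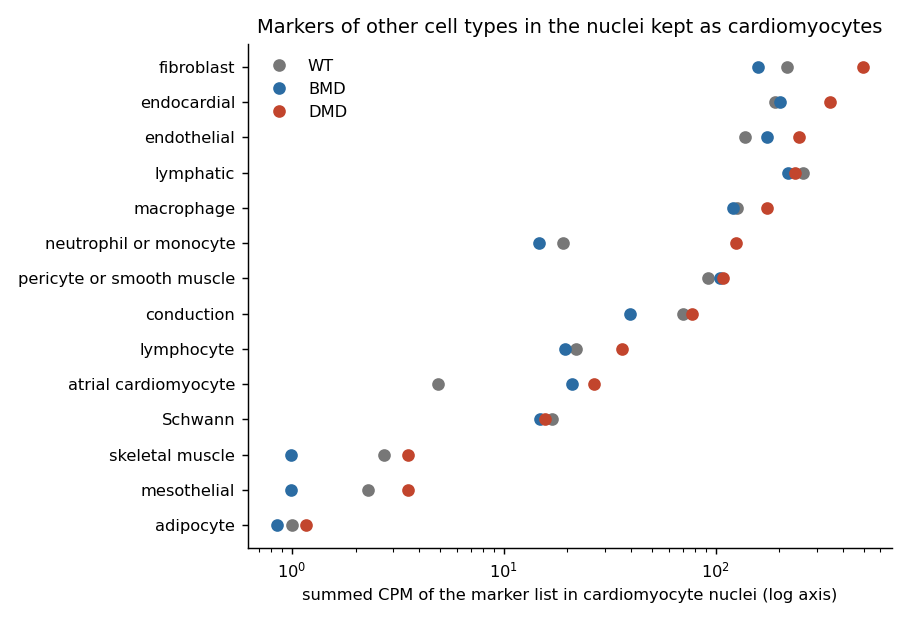
Summed CPM (log axis) of the marker genes of 14 other cell types in the cardiomyocyte nuclei of WT (grey), BMD (blue) and DMD (red), 1 point per library. The DMD point lies to the right of the BMD point in every list, most of all for the neutrophil or monocyte list (14.6 CPM in BMD, 125 in DMD).

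The targeted gene Dmd (ENSRNOG00000046366) stood at 20187 CPM in BMD, 18722 in DMD and 16099 in WT. Its log2 ratio of DMD over BMD was -0.11 (-0.12 to -0.10), within 1.5-fold. A deletion of a few exons leaves most of the transcript, so this level does not check the genotype labels. Ratios throughout are log2 of (DMD CPM plus 5) over (BMD CPM plus 5). A negative ratio means a higher level in BMD.

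Most genes lay close to equality. Over 6402 genes with at least 200 UMIs in the 2 sets of nuclei together, the median log2 ratio was 0.01 and the middle 50% ran from -0.15 to 0.16. A total of 183 genes (2.86%) were past 1.5-fold with the higher level in DMD, and 159 genes (2.48%) with the higher level in BMD. Among 759 genes with a level at least 3 times that of the nuclei not kept, called cardiomyocyte-enriched here, 32 (4.22%) were higher in DMD and 71 (9.35%) higher in BMD. That level was pooled over both libraries, and BMD gave 7043565 of the kept UMIs against 4263711 of DMD. A gene high only in BMD could therefore pass this filter more easily, so the split between the directions is no independent result. Of the 183 genes higher in DMD, 123 had a lower level in the kept than in the other nuclei. Of the 159 higher in BMD, 41 did. These levels were pooled in the same way, and the share over all 6402 genes is not given here. Neither count is therefore read as a result about the genes past the fold.

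**Figure D2:**
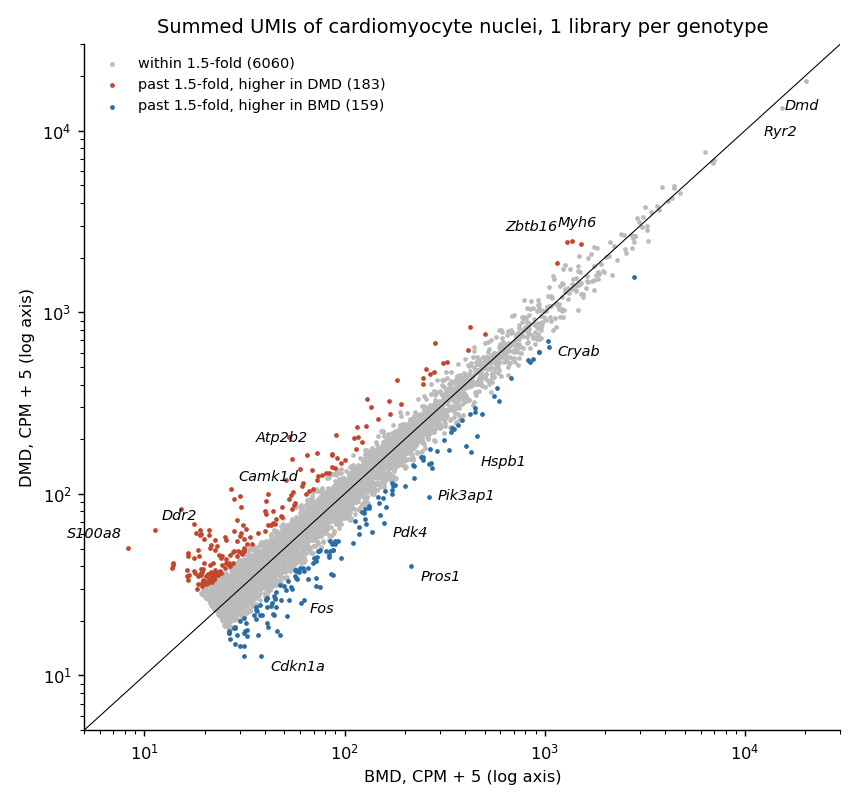
Level of each of 6402 genes in BMD (x axis) and DMD (y axis) cardiomyocyte nuclei as CPM + 5 on log axes, with the line of equality. Red points are the 183 genes past 1.5-fold with the higher level in DMD and blue points the 159 with the higher level in BMD. Pros1 lies farthest below the line and S100a8 farthest above it.

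Several chaperones were higher in BMD. Of the 24 measured genes for chaperones and the unfolded protein response, 7 were past 1.5-fold with the higher level in BMD and 1 with the higher level in DMD, with a median log2 ratio of -0.21. The share higher in BMD was 2.48% over all 6402 genes and 9.35% over the 759 cardiomyocyte-enriched genes. Hspb1, a small heat shock protein that binds unfolding proteins and actin, stood at 423 CPM in BMD (408 to 439), 166 in DMD (154 to 179) and 72.5 in WT. Its log2 ratio was -1.32 (-1.44 to -1.21), against -0.02 in fibroblast-marked and -0.11 in endothelial-marked nuclei. With each nucleus thinned to 1000 UMIs, which 1567 BMD and 1092 DMD nuclei reached, Hspb1 had a UMI in 28.5% of BMD and 14.6% of DMD cardiomyocyte nuclei (58.6% and 32.1% unthinned). In endothelial-marked nuclei thinned alike the shares were 11.1% and 10.9%. Hspa8, the constitutive member of the Hsp70 family, stood at 113, 55.4 and 24.4 CPM in BMD, DMD and WT, a ratio of -0.96 (-1.16 to -0.77). Hspa1b, an inducible Hsp70, stood at 42.6, 11.7 and 1.58 CPM, a ratio of -1.51 (-1.83 to -1.18), and its count is uncertain because a near-identical copy lies beside it. For these 3 chaperones WT lay below both dystrophic libraries, and BMD was the highest.

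The other members past the fold were nearer to it. Hspb7, a small heat shock protein of heart and muscle, had a log2 ratio of -0.86, Ddit3, the CHOP factor of the unfolded protein response, -0.71, Hsp90aa1, an inducible Hsp90, -0.59, and Cryab, the small heat shock protein of the Z-disc and desmin, -0.59. Cryab stood at 1035 CPM in BMD, 686 in DMD and 452 in WT. Calr, a chaperone of the endoplasmic reticulum, was the member higher in DMD, at 25.7 CPM in BMD and 41.8 in DMD. It had a UMI in 3.06% of thinned BMD and 4.67% of thinned DMD nuclei, against 10.3% and 11.8% of endothelial-marked nuclei. Bag3, a partner of Hsp70 and the member with the most UMIs after Cryab, had 432 and 412 CPM and a ratio of -0.07 (-0.15 to 0.02).

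Heat shock factor binds promoters through repeats of a short inverted sequence, and the promoters of Hspb1 and Hspa8 are printed because, of the genes of the list higher in BMD that had a promoter in the table used, these 2 had the lowest ratios. No promoter of Hspa1b, Cryab or Hsp90aa1 was analysed here. RefSeq promoters of build GRCr8, 250 bases before to 50 after the gene's start, were searched for GAANNTTC and TTCNNGAA, which read the same on both strands and can overlap each other. They occurred in 5305 of 33469 promoters (15.9%). Of the 30 genes of the list in the files, 25 had a promoter in the table and 11 of these held a match. Of the 7 higher in BMD, 4 had a promoter, and Hspb1 and Hspa8 held the motif while Hspb7 and Ddit3 did not. Bag3, Dnaja1 and Hsph1, with ratios of -0.07, 0.09 and -0.08, held it too. The matches are in capitals in the promoter of Hspb1 (chr12:26432252-26432551, minus strand, 2 matches) and in that of Hspa8 (chr8:50080264-50080563, plus strand, 4 matches, overlapping in pairs), both written 5′ to 3′ along the gene.
Hspb1: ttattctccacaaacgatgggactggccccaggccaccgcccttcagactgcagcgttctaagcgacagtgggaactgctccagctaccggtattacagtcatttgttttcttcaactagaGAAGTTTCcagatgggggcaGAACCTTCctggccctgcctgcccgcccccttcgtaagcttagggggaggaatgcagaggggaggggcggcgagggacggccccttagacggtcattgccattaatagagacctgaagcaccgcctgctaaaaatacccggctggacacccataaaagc
Hspa8: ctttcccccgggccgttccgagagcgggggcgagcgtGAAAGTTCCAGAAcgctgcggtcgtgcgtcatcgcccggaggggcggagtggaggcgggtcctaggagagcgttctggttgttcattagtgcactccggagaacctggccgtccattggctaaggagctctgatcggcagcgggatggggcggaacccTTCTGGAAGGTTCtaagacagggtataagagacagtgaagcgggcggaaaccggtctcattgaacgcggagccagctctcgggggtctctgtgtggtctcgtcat

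Among single stress genes outside the chaperones, Gadd45g, Gadd45a and Cdkn1a were higher in BMD. Gadd45g, which responds to stress and DNA damage, stood at 400.2 CPM in BMD, 178 in DMD and 73.8 in WT, a log2 ratio of -1.14 (-1.26 to -1.03). Its relative Gadd45a stood at 57.6, 21.1 and 13.5 CPM (-1.26). Cdkn1a, the p21 inhibitor of the cell cycle, stood at 33.4 CPM in BMD (29.2 to 37.9), 7.74 in DMD (5.33 to 10.9) and 20.7 in WT, a ratio of -1.59, while the p53 list it belongs to had a median of -0.07 and no other member past the fold among 6. Of 13 immediate early genes, which are transcribed within minutes of a stimulus, 3 were higher in BMD and none in DMD, with a median of -0.36. Over all 6402 genes the shares were 2.48% and 2.86%. The count higher in BMD was 2 in nuclei of at most 8000 UMIs. With nuclei thinned to 1000 UMIs it was 4, with 1 higher in DMD. With the mean over nuclei of CPM it was 2, with 1 higher in DMD, and Zfp36 had a ratio of -0.45. Fos stood at 55.5, 20.2 and 4.31 CPM in BMD, DMD and WT, Zfp36 at 40.2, 18.8 and 15.7, and Junb at 82.5, 44.1 and 24.3. In endothelial-marked nuclei Fos had a ratio of 0.76, but it was near the floor there. It had a UMI in 0.450% of thinned BMD (0.123 to 1.15) and 0.906% of thinned DMD endothelial-marked nuclei (0.392 to 1.78), with overlapping intervals. Immediate early genes can be induced while tissue is taken apart, and the time from dissection to lysis of each heart was not given in the sources used here.

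Part of this stress signal sat in few BMD nuclei. The 10 BMD nuclei with the most Cryab UMIs, which had 8059 to 29262 UMIs in all, included 9 of the 10 highest for Hspb1, 9 for Hspb7, 8 for Gadd45g, 8 for Cdkn1a, 7 for Ddit3, 8 for the natriuretic peptide gene Nppb and 0 of the 10 highest for Myh6. They also included 7 of the 10 highest for Gadd45a, 9 for the fatty acid carrier gene Fabp3 and 7 for the titin partner gene Ankrd1. The overlap was thus not limited to stress genes of the lists above. In DMD the 10 nuclei highest for Cryab shared 2 with Hspb1, 4 with Gadd45g, 2 with Ddit3, 3 with Nppb, 4 with Fabp3 and 1 with Ankrd1, and had 3815 to 10480 UMIs. Deep nuclei rank high for many genes, and the 10 BMD nuclei held 2 of the 10 highest for Dmd. The 10 nuclei highest for each gene held 28.9% of the BMD UMIs of Ddit3, 26.3% of those of Gadd45g, 18.8% of those of Cryab and 17.4% of those of Hspb1, against 12.7%, 14.6%, 8.07% and 11.02% in DMD. Other genes were more concentrated in DMD, where their UMIs were fewer, with 48.5% of the Cdkn1a UMIs in 10 nuclei against 32.3% in BMD, 37.2% against 15.6% for Fos, 36% against 13.3% for Hspa1b, 26.7% against 24.1% for Gadd45a and 11.4% against 6.42% for Hspa8.

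Over 8000 UMIs there were 140 BMD and 51 DMD nuclei. In the BMD ones Ddit3 stood at 334 CPM, against 120 in shallower BMD nuclei, Cdkn1a at 66.8 against 23.9, and Nppb at 2064 against 869. The DMD ones had 113, 3.89 and 663 CPM of these genes, against 98.2, 8.27 and 843 in shallower nuclei. The 2 DMD values of Cdkn1a rest on 2 and 31 UMIs, so no trend with depth is read from them. Without the nuclei over 8000 UMIs in either library, Hspb1 (-1.14), Gadd45g (-0.87), Gadd45a (-0.89), Cdkn1a (-1.12), Hspa8 (-0.93) and Hspa1b (-1.50) stayed past the fold, while Ddit3 (-0.27), Cryab (-0.40), Hspb7 (-0.56) and Hsp90aa1 (-0.51) did not, which left 3 chaperones higher in BMD and 2 in DMD. The limit of 8000 UMIs was chosen for this comparison after the values were seen.

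Most genes of fatty acid use lay within 1.5-fold, and those past it were higher in BMD. Of 34 measured genes of fatty acid use, 5 were higher in BMD past 1.5-fold, none in DMD, and 24 had a negative ratio (median -0.16). The share higher in BMD was 2.48% of all 6402 genes and 9.35% of the 759 cardiomyocyte-enriched genes. Pdk4, the kinase that blocks the oxidation of pyruvate when fat is burned, stood at 152 CPM in BMD (143 to 161), 64.3 in DMD (56.9 to 72.3) and 16.4 in WT, a log2 ratio of -1.18 (-1.36 to -1.0). It had a UMI in 12.4% of thinned BMD and 5.77% of thinned DMD nuclei (33.0% and 14.0% unthinned), against 0.675% and 0.340% of endothelial-marked nuclei. Angptl4, a secreted inhibitor of lipoprotein lipase, had a ratio of -1.31 at 26.6 and 7.74 CPM, and the acyl-CoA thioesterase gene Acot2 one of -0.66. Fabp3, the fatty acid carrier of heart muscle, stood at 673, 430 and 342 CPM in BMD, DMD and WT (-0.64), and Acsl1, which activates fatty acids with coenzyme A, at 442, 292 and 543 (-0.59). These genes did not stay past the fold in all 14 settings that changed the nuclei or the scaling. Fabp3 had -0.57 in nuclei of 2000 to 8000 UMIs and Acsl1 -0.45 when thinned, while Pdk4, Angptl4 and Acot2 stayed past it. In nuclei of at most 8000 UMIs Fabp3 stood at 620 CPM in BMD and 415 in DMD, against 857.5 and 539 in deeper nuclei. WT was below both libraries for Pdk4 and Fabp3 but above both for Acsl1. Among transcriptional regulators of the pathway, Ppara was at -0.18, Esrrg at -0.10, Esrra at 0.09 and Ppargc1a at 0.09, all within 1.5-fold.

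Of 31 genes of glucose use, 2 were past the fold, both higher in BMD (median -0.08). They were isoforms of the enzyme that sets fructose 2,6-bisphosphate, the activator of glycolysis. Pfkfb1 stood at 132, 56.5 and 79.2 CPM in BMD, DMD and WT (-1.15), and Pfkfb2, the heart isoform, at 260, 140 and 150 (-0.86). In the list of glucocorticoid and fasting genes, 4 of 15 were higher in BMD and 1 in DMD, with a median of -0.37. Of the 15, 12 had a negative ratio and 3 a positive one. Beside both lists, 2.48% of all 6402 genes were higher in BMD past the fold and 2.86% in DMD. Over the 759 cardiomyocyte-enriched genes the share higher in BMD was 9.35%. The count of 2 for glucose use is therefore not read as a result about that list. The 4 fasting genes higher in BMD were Cdkn1a, Angptl4, Pdk4 and Lpin1, a phosphatidate phosphatase at 113 and 60.3 CPM (-0.85). The glucocorticoid-induced genes Fkbp5 and Klf9 went against most of the list, with positive ratios of 0.33 and 0.28.

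**Figure D3:**
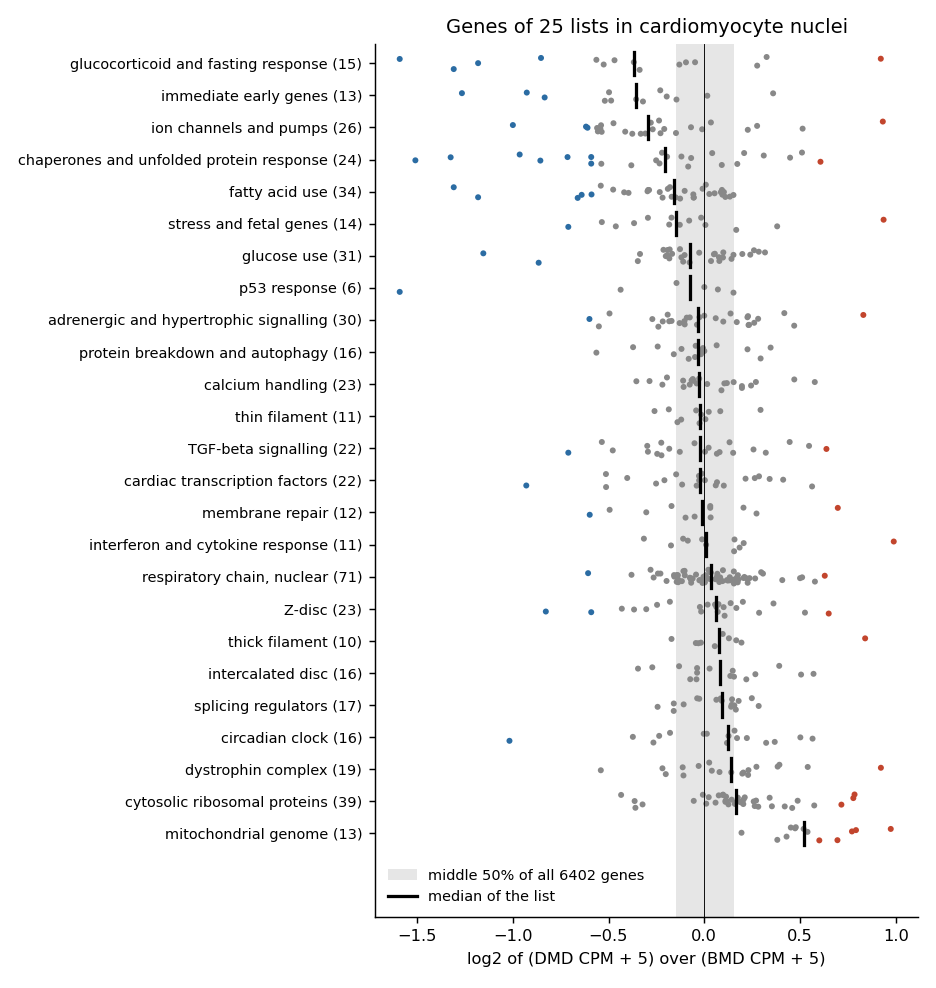
Log2 ratio of DMD over BMD for each measured gene of 25 lists (points, list size in brackets) with the list median (black bar); grey marks the middle 50% of all 6402 genes, red and blue points are past 1.5-fold. The medians run from -0.37 for glucocorticoid and fasting genes to 0.52 for the 13 genes of the mitochondrial genome.

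Abcc9 and Cacna1h were among the ion channel genes higher in BMD, and Hcn4 was higher in DMD. Of 26 measured genes for channels, pumps and exchangers, 3 were past the fold with the higher level in BMD, 1 with the higher level in DMD, and 21 of 26 had a negative ratio (median -0.29). Higher in BMD past the fold were 2.48% of all 6402 genes and 9.35% of the 759 cardiomyocyte-enriched genes. The count of 3 is therefore not read as a result about the list. Abcc9, the regulatory subunit of the ATP-sensitive potassium channel, stood at 928 CPM in BMD (905 to 950), 603 in DMD (580 to 627) and 939 in WT, a ratio of -0.62 (-0.68 to -0.55). Its pore partner Kcnj11 stood at 33 and 21 CPM (-0.54), and the related subunit Abcc8 at 176 and 118 (-0.56). The T-type calcium channel Cacna1h stood at 38.8, 16.9 and 26.6 CPM in BMD, DMD and WT (-1.0). In the other direction, the pacemaker channel Hcn4 stood at 35.4 CPM in BMD, 72.0 in DMD and 65.9 in WT, a ratio of 0.93 (0.71 to 1.15). Hcn4 is also on the conduction marker list, where it made up most of the summed 39.6 CPM in BMD and 77.4 in DMD. Its source among these nuclei was not tested. The WT level was nearer to BMD for Abcc9 and nearer to DMD for Hcn4.

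The gene with the lowest ratio of all was Pros1, which encodes the anticoagulant and receptor ligand protein S. It stood at 211 CPM in BMD, 34.9 in DMD and 41.1 in WT, a log2 ratio of -2.43 (-2.65 to -2.21). In endothelial-marked nuclei it stood at 274 and 172 CPM (-0.66). Pros1 had a UMI in 14.6% of thinned BMD and 3.30% of thinned DMD cardiomyocyte nuclei (33.5% and 9.35% unthinned). The shares were 21.9% and 14.0% in endothelial-marked nuclei, which carry the gene themselves and so give no background for it. Pik3ap1, an adaptor of phosphoinositide 3-kinase, stood at 258 CPM in BMD, 91.2 in DMD and 275 in WT (-1.45), with UMIs in 21.7% and 8.61% of thinned cardiomyocyte nuclei against 1.8% and 1.59% of endothelial-marked ones (55.5% and 21.5% of cardiomyocyte nuclei unthinned). The serotonin receptor gene Htr4 (-1.38), the heparan sulfate sulfotransferase gene Hs3st2 (-1.24) and the class V myosin gene Myo5c (-1.28) were cardiomyocyte-enriched. WT stood below both dystrophic libraries for these 3, at 6.18, 6.03 and 0.144 CPM. For Myo5c the levels were 46.4 CPM in BMD and 16.2 in DMD. The remaining genes of the lowest 15 were Rrp12, a factor of ribosome assembly, Irak2, a kinase of interleukin-1 signalling, and Nit2, an amidase, at -1.29, -1.29 and -1.22. WT was nearer to DMD than to BMD for 12 of the 15, and all 15 stayed past the fold in each of 14 settings that changed the nuclei or the scaling. These genes were chosen for their ratio on the same UMIs, so neither count is an independent result.

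**Figure D4:**
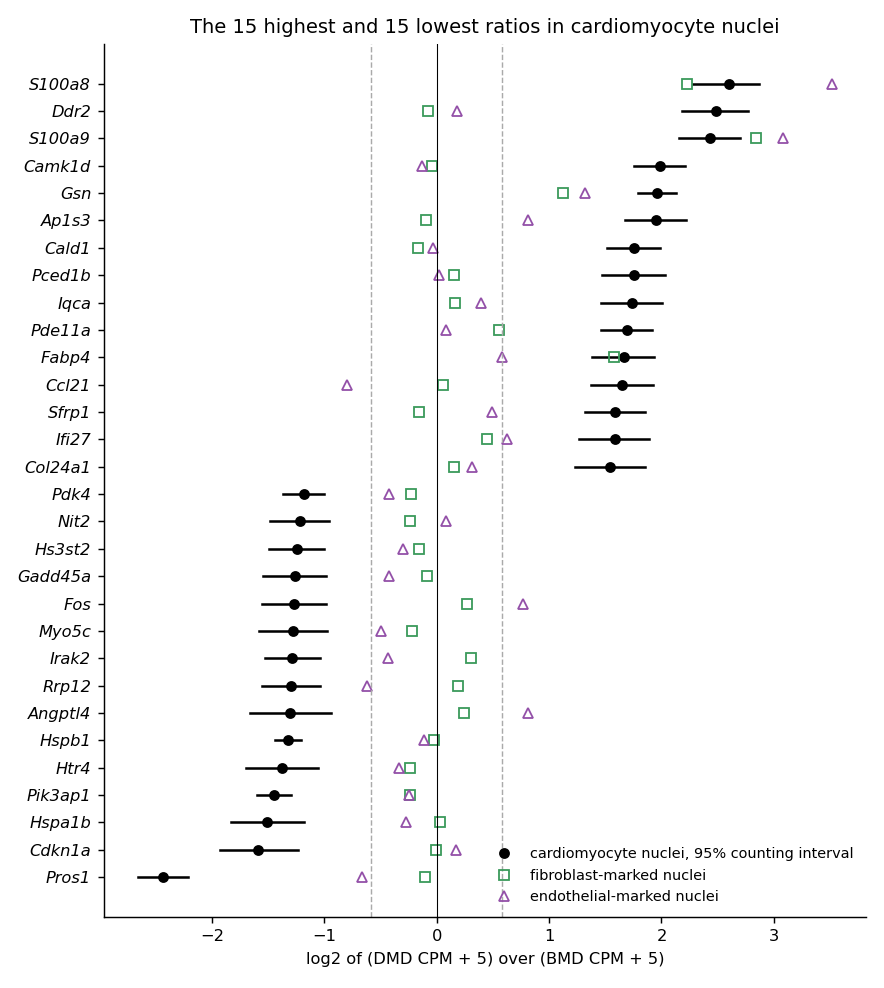
Log2 ratio of DMD over BMD for the 15 genes with the highest and the 15 with the lowest value in cardiomyocyte nuclei (black points with 95% counting intervals), beside fibroblast-marked (green squares) and endothelial-marked nuclei (purple triangles); dashed lines mark 1.5-fold. The cardiomyocyte values run from -2.43 for Pros1 to 2.60 for S100a8, and S100a8, S100a9 and Gsn are also high in the other nuclei.

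Myh6 was the contractile gene past the fold. Of 10 thick filament genes, Myh6 alone was past the fold, and of 11 thin filament genes none (medians 0.08 and -0.02). With 2.86% of all 6402 genes past it in DMD and 2.48% in BMD, these counts are not read as a result about the lists. Mybpc3 and Myl2 of the first list and Tnnt2 and Tnni3 of the second were among the genes that selected the nuclei, so their values are no independent result. Myh6 encodes the fast alpha myosin heavy chain of the rodent ventricle, which a stressed heart replaces with the slower beta chain of Myh7. It stood at 1368 CPM in BMD (1341 to 1396), 2453 in DMD (2406 to 2500) and 2527 in WT, a log2 ratio of 0.84 (0.80 to 0.88). It had a UMI in 43.2% of thinned BMD and 64.8% of thinned DMD nuclei (57.3% and 75.2% unthinned), against 5.40% and 7.02% of endothelial-marked ones. Myh7 stood at 2499, 2219 and 1631 CPM, a ratio of -0.17 (-0.21 to -0.14). The DMD library was close to WT for Myh6 and the BMD library was not, while for Myh7 both lay above WT. The study, by contrast, reports Myh6 as strongly lower in both models, from these libraries and from RT-qPCR of ventricle tissue of several rats. The source of this disagreement for DMD was not tested, and the levels here rest on 1 library per genotype.

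Of 23 Z-disc genes, 1 was higher in DMD and 2 in BMD. Over all 6402 genes, 2.86% were past the fold with the higher level in DMD and 2.48% in BMD. Over the 759 cardiomyocyte-enriched genes these shares were 4.22% and 9.35%. The Z-disc counts are therefore not read as a result about the list. Pdlim3, an adaptor of alpha-actinin, stood at 1508, 2368 and 1262 CPM in BMD, DMD and WT (0.65, 0.61 to 0.69). Xirp2, which binds actin at the Z-disc and intercalated disc, went the other way at 2779, 1564 and 829 CPM (-0.83, -0.87 to -0.79), with -0.84 in endothelial-marked nuclei and Cryab was the other one. Tpm1, which encodes tropomyosin, and the stress-responsive titin partner gene Ankrd1 both had a log2 ratio of -0.02.

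**Figure D5:**
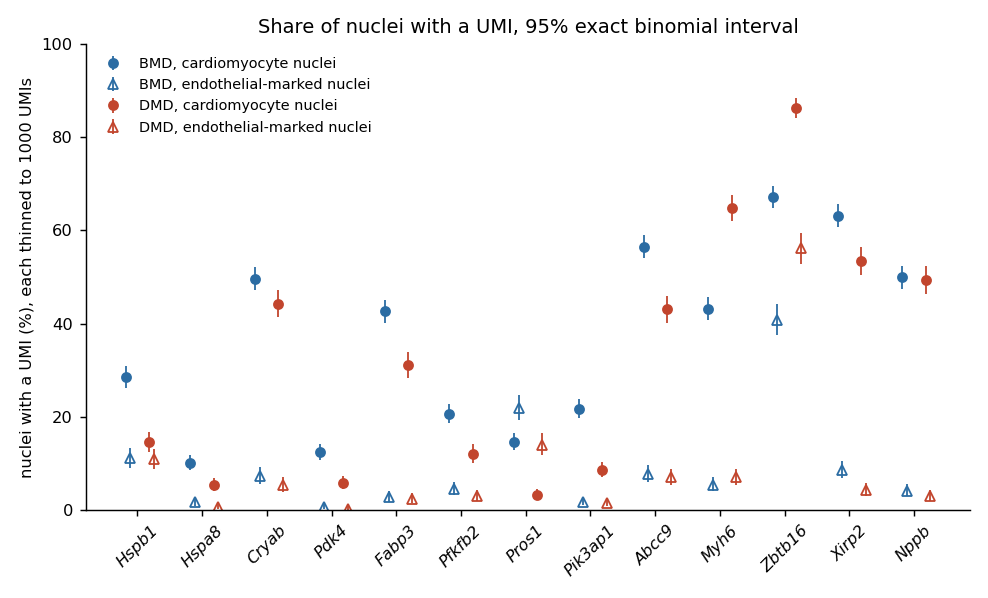
Share of nuclei with at least 1 UMI of 13 genes after thinning to 1000 UMIs, with exact binomial 95% intervals, for BMD (blue) and DMD (red), in cardiomyocyte nuclei (filled circles) and endothelial-marked nuclei (open triangles). Hspb1, Pdk4, Pik3ap1 and Abcc9 had UMIs in more BMD nuclei and Myh6 and Zbtb16 in more DMD nuclei, while the Nppb shares, 50% and 49.3%, had overlapping intervals.

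Natriuretic peptides, the usual markers of a loaded ventricle, separated both dystrophic libraries from WT more than from each other. Nppa stood at 889 CPM in BMD, 842 in DMD and 161 in WT (-0.08, -0.14 to -0.02). Nppb stood at 1133, 821 and 349 CPM, a ratio of -0.46 (-0.52 to -0.40) that was -0.04 without the nuclei over 8000 UMIs. Of 14 stress and fetal genes, Ccn1, a matricellular protein of stretched cells, was higher in BMD (84.9 and 49.96 CPM, -0.71), and Timp1 higher in DMD (13.9 and 31.2 CPM, 0.94). Beside them, 2.48% of all 6402 genes were past the fold in BMD and 2.86% in DMD. These counts are therefore not read as a result about the list. Timp1, an inhibitor of matrix proteases, was at 0 after the free RNA profile was subtracted, a floor that does not show the source of its UMIs.

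Zbtb16, a zinc finger repressor that glucocorticoids induce, stood out among the abundant genes higher in DMD. It stood at 1282 CPM in BMD (1255 to 1308), 2433 in DMD (2386 to 2480) and 939 in WT, a ratio of 0.92 (0.88 to 0.96). The same direction was seen outside cardiomyocytes, with 527 and 1199 CPM in fibroblast-marked nuclei (1.18) and 643 and 1092 in endothelial-marked nuclei (0.76). Prkag2, a regulatory subunit of the energy sensor AMP-activated kinase, stood at 240 CPM in BMD, 431 in DMD and 243 in WT, a ratio of 0.83 (0.74 to 0.93), against 0.15 and 0.03 in fibroblast-marked and endothelial-marked nuclei. Npr3, the clearance receptor for natriuretic peptides, stood at 123, 231 and 93.5 CPM (0.88) and was 0.93 in fibroblast-marked nuclei. It is also on the endocardial marker list, where it made up most of the summed level given above, and its source among these cells was not tested. Sgce, the epsilon-sarcoglycan, was the 1 member of 19 of the dystrophin complex past the fold, at 16.3, 35.4 and 35.5 CPM (0.92). Past it in DMD were 2.86% of all 6402 genes, so this count is not read as a result about the complex. Utrn, the dystrophin relative utrophin, stood at 797 and 919 CPM (0.20), and Sgca, the alpha-sarcoglycan, at 366 and 250 (-0.54).

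Among cardiomyocyte-enriched genes, the 10 with the highest ratio stayed past 1.5-fold in all 14 settings. They were chosen for that ratio on the same UMIs, so this is no independent result. The UMI minimum and the enrichment were pooled over both libraries, so a low gene could pass mainly through DMD. Pde11a, a phosphodiesterase of cAMP and cGMP, stood at 25.1 CPM in BMD (21.6 to 29.1), 92.2 in DMD (83.3 to 102) and 19.2 in WT, a ratio of 1.69 (1.46 to 1.92). Atp2b2, a plasma membrane calcium pump, stood at 67.6, 163 and 82.0 CPM (1.21), and Dcp1b, a cofactor of mRNA decapping, at 130, 294 and 90.9 (1.14). Iqca, the adhesion gene Kirrel3, the polycystin gene Pkd1l1, Ccdc81 and Atcay were low genes, at 8.80 to 17.5 CPM in BMD and 32.4 to 57.9 in DMD, with ratios of 1.08 to 1.73. The other 2 were unnamed gene models, AABR07042936.1 (1.17) and AC115371.1 (1.07).

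Ddr2, Camk1d, Cald1 and Pced1b had high ratios in cardiomyocyte nuclei, were more abundant in another class of nuclei, and had a ratio near 0 there. Ddr2, a receptor kinase for collagen, stood at 6.25 CPM in BMD cardiomyocyte nuclei (4.54 to 8.39), 57.9 in DMD (50.9 to 65.6) and 24.8 in WT, a ratio of 2.48 (2.18 to 2.77). In fibroblast-marked nuclei it stood at 670 and 634 CPM (-0.08). Camk1d, a calmodulin-dependent kinase, stood at 22.01, 102 and 13.9 CPM in BMD, DMD and WT (1.98), against 141 and 128 CPM in endothelial-marked nuclei (-0.13). Cald1, the actin and calmodulin binding caldesmon, stood at 22.9, 88.9 and 28.9 CPM (1.75), against 346 and 308 CPM in fibroblast-marked nuclei (-0.17). Pced1b (1.75) had ratios of 0.15 and 0.02 in fibroblast-marked and endothelial-marked nuclei. Ap1s3, a subunit of a clathrin adaptor, had 1.95 (0.81 in endothelial-marked nuclei), the secreted Wnt inhibitor gene Sfrp1 1.59 (0.49) and the collagen gene Col24a1 1.54 (0.32). All 7 genes stayed past the fold in the 14 settings, which reuse the UMIs that these genes were chosen on. Camk1d had UMIs in 1.60% of thinned BMD and 7.69% of thinned DMD nuclei (6.43% and 18.6% unthinned), against 10.3% and 11.6% of endothelial-marked nuclei, which carry it at a higher level. Ddr2 had UMIs in 0.447% and 4.67% (2.02% and 14.3% unthinned), against 1.69% and 2.15%.

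A further set was high in the free RNA. S100a8 and S100a9, the calprotectin genes of neutrophils, had the ratios 2.60 and 2.43 in cardiomyocyte nuclei, 2.23 and 2.84 in fibroblast-marked nuclei, and 3.52 and 3.08 in endothelial-marked nuclei. S100a9 stood at 10.2 CPM in BMD and 77.2 in DMD cardiomyocyte nuclei, and at 429 and 2666 CPM in the free RNA. Gsn, an actin severing protein abundant in fibroblasts, stood at 47.6 and 200 CPM (1.96), and at 1221 and 4699 in the free RNA. Ifi27, an interferon-induced gene, had 1.58. With the free RNA profile subtracted, S100a8, S100a9, Gsn and Ifi27 were at 0 in both libraries. For S100a9 and Gsn the estimated free RNA, 6.58% of the BMD and 5.72% of the DMD UMIs, exceeded the whole level. The value of 0 is thus a floor set by the estimate and does not show the source of these UMIs. Fabp4, a fatty acid carrier of endothelium and fat, had 1.66 and was 1.58 in fibroblast-marked nuclei. Ccl21, a chemokine of lymphatic vessels, had 1.65, but 10 nuclei held 55.6% of its DMD UMIs, and it was 0.54 in nuclei with no UMI of Dcn, Pdgfra, Flt1 or Ptprb. B2m, the light chain of class I molecules, was the 1 interferon and cytokine gene of 11 past the fold, at 63.3 and 131 CPM (0.99), and was at 1232 and 1279 CPM in endothelial-marked nuclei. Past the fold in DMD were 2.86% of all 6402 genes, so this count is not read as a result about the list. Subtraction of the free RNA profile gave B2m a ratio of 2.80 and Ccl21 one of 1.91, while thinning gave them 0.52 and 1.12. The subtracted ratios rest on the same estimate of free RNA.

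All 13 genes of the mitochondrial genome had positive ratios, 5 of them past the fold (median 0.52). Over all 6402 genes the share past the fold with the higher level in DMD was 2.86%. Mt-co2, a subunit of cytochrome oxidase, stood at 1149 CPM in BMD, 1863 in DMD and 805 in WT (0.70). In nuclei with a marker share of at least 2% none of the 13 was past the fold (median 0.17), and without nuclei over 5% mitochondrial UMIs 1 was. With the free RNA profile subtracted 6 were (median 0.53), and in nuclei with no UMI of the other-cell genes 8 were (median 0.60). Summed over the 13 genes, free RNA held 54082 CPM in BMD and 85810 in DMD. Of 71 nuclear genes of the respiratory chain, Atp5me was higher in DMD (0.63) and Ndufa10l1 higher in BMD (-0.61), with a median of 0.03. Of 39 ribosomal protein genes, 3 were higher in DMD (Rps28, Rpl37a and Rplp1, median 0.16), 27 were with the mean over nuclei of CPM, and 0 in nuclei of at least 1000 UMIs or in nuclei with no UMI of Dcn, Pdgfra, Flt1 or Ptprb.

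In 4 further lists no measured gene was past 1.5-fold in either direction. Of 23 calcium handling genes the ryanodine receptor gene Ryr2 stood at 15327 and 13390 CPM (-0.19, -0.21 to -0.18), the calcium ATPase gene Atp2a2 at 4305 and 4226 (-0.03), and the sodium-calcium exchanger gene Slc8a1 at 6922 and 6658 (-0.06). Of 16 intercalated disc genes, the connexin gene Gja1 stood at 690 and 672 CPM (-0.04, -0.10 to 0.03) and Tmem65, which encodes a membrane protein of the disc, at 263 and 250 (-0.07, -0.18 to 0.03), against 731 and 458 in WT. The desmoglein gene Dsg2 had the highest ratio, 0.57. The 17 splicing regulators and the 16 genes of protein breakdown had medians of 0.09 and -0.03. Rbm20, a splicing regulator at -0.03, was among the genes that selected the nuclei, so its value is no independent result.

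In the remaining lists 1 or 2 genes were past the fold. Over all 6402 genes, 2.86% were past it with the higher level in DMD and 2.48% in BMD. A count of 1 or 2 is therefore not read as a result about a list. Of 16 clock genes, 10 had a positive ratio and 6 a negative one. Arntl, which encodes the activator BMAL1, was the member past the fold, at 47.8, 21.1 and 17.5 CPM in BMD, DMD and WT (-1.02). Per2 (0.57), Cry1 (0.50) and Per3 (0.32) were among the positive ones. The hour of sampling was not given in the sources used here, and its part was not tested. In endothelial-marked nuclei Arntl had -0.62. Of 22 cardiac transcription factors, Hopx was higher in BMD at 23.3 and 9.85 CPM (-0.93), and of 30 adrenergic and hypertrophic genes, the receptor kinase gene Grk5 was higher in BMD (-0.60) and Prkag2 higher in DMD. Of 22 TGF-beta genes, Bmp6 was higher in DMD (0.64) and Ccn1 in BMD, and of 12 membrane repair genes, Cavin1 in DMD (0.70) and Anxa6 in BMD (-0.60). Hopx, Grk5, Bmp6, Ccn1, Cavin1 and Anxa6 each fell within the fold in at least 1 of the 14 settings, Bmp6 to 0.18 and Hopx to -0.56.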

How the data were processed

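Single nuclei of the rat heart apex were sequenced in 1 library per genotype. The kit was 10x Genomics 3′ v3.1, per the labels and the methods, whereas the study's results text names a 5′ technology, so which end was counted is unsure. The authors counted UMIs with Cell Ranger against the rn6 build, per the submitters' processing notes, and deposited raw counts per gene and barcode. Whether introns or the strand entered the counts is not given in the sources used here. BMD and DMD counts came from their own matrices (Cell Ranger 4 in the file headers). WT counts came from the WT barcodes of an aggregate (Cell Ranger 6.0.1), in which the version used for WT itself is not named, served as a reference level and entered no ratio. The libraries held 21142346 UMIs in BMD, 19215994 in DMD and 21609238 in WT.

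The 6810 BMD and 7890 DMD barcodes with most UMIs, the study's own numbers of nuclei, were taken as nuclei (at least 525 and 546 UMIs). The marker rule was applied per nucleus, with no doublet or mitochondrial filter, and UMIs were summed per gene. CPM had exact Poisson intervals, shares Clopper-Pearson intervals, the difference of shares a Newcombe interval, and ratios an interval from the exact binomial share of DMD in a gene's UMIs (scipy 1.17.1). Genes needed 200 UMIs over both libraries. With 1 library a side no test could be made, and 1.5-fold was a rule of size. The functions were tested on simulated data.

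Named genes were the 15 highest and 15 lowest ratios, the 10 highest and lowest among cardiomyocyte-enriched genes, the genes the study names in cardiomyocytes, and in each list the members past the fold and the 3 with most UMIs. Some genes of the lists are not reported here by name. Other list members are named as examples chosen after their values were seen. The nuclei, lists and rules were chosen with earlier results of these data known. Alternatives were TMM scaling (edgeR 4.0.16), median-of-ratios scaling, totals without mitochondrial and ribosomal genes, thinning to 1000 UMIs, the mean over nuclei, depth limits, a marker share of 2%, no UMI of the other-cell genes, removal of Scrublet doublets (scanpy 1.11.5) or of nuclei over 5% mitochondrial UMIs, subtraction of free RNA (estimated at 6.58% of the BMD and 5.72% of the DMD UMIs), all called nuclei, other UMI minimums, pseudocounts and folds. Kept nuclei of at most 8000 UMIs were added after the data were seen.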

Additional observations from a re-analysis of the deposited data

Results flagged for a closer look

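Both results here are ratios past 1.5-fold in opposite directions in 2 classes of nuclei, among named genes with at least 200 UMIs in each class, and the difference between the classes was not tested. Abcc9 was higher in BMD cardiomyocyte nuclei (log2 ratio of DMD over BMD -0.62) and higher in DMD fibroblast-marked nuclei, where it stood at 128 CPM in BMD and 260 in DMD, a log2 ratio of 1.0 (0.81 to 1.18). Ccl21 was higher in DMD cardiomyocyte nuclei (1.65) and higher in BMD endothelial-marked nuclei, where it stood at 525 CPM in BMD and 301 in DMD, a log2 ratio of -0.8 (-0.95 to -0.65). Of its UMIs in DMD cardiomyocyte nuclei, 55.6% were in 10 nuclei. In cardiomyocyte nuclei with no UMI of Dcn, Pdgfra, Flt1 or Ptprb its ratio was 0.54, within 1.5-fold.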

How the results depend on the processing

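No paired analysis was possible because each genotype was 1 library, and for the same reason no replicate could be left out. The number of genes higher in DMD past the fold was 183. It was 56 with nuclei thinned to 1000 UMIs (2573 genes tested), 310 with the mean over nuclei of CPM, 117 in nuclei with no UMI of the other-cell genes, 520 in all called nuclei, 309 with genes of at least 100 UMIs, 76 with at least 500, 552 with at least 1, 107 with CPM plus 20 and 56 at a fold of 2. The number higher in BMD was 159, and under the same alternatives it was 80 when thinned, 246 in all called nuclei, 98 with at least 500 UMIs, 83 with CPM plus 20 and 28 at a fold of 2. Genes higher in DMD were 53.5% of all genes past the fold, 41.2% when thinned, 43.5% with no UMI of the other-cell genes, 66.5% with the mean over nuclei and 67.9% in all called nuclei. The scalings moved the median of all genes by less than 0.1. The difference in kept share was -9.75 points among barcodes of at least 1000 UMIs and -12 among those of at least 2000. Ddit3 was the 1 named gene past the fold that changed sign, to 0.017 when thinned. The causes were not tested. Depth limits the low genes, and in the absence of a second library per genotype no difference can be told apart from one between animals or preparations.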
